A study of Mus musculus with 4 samples.

Results

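The 9 genes described here encode enzymes of the tricarboxylic acid (TCA) cycle in the mitochondrial matrix, namely Cs, Idh3a, Idh3b, Idh3g, Ogdh, Sucla2, Suclg1, Fh1 and Mdh2. They were taken by gene symbol from a table of 29300 genes, and all 9 were found and passed the filter on low counts that left 17144 genes for testing. RNA came from the hippocampus of male wild-type C57BL/6 mice aged 7 to 8 months, at day 1 after the procedure, with 2 mice and 1 library per mouse in each group. Control (sham) mice received isoflurane anesthesia and tramadol analgesia, and perioperative neurocognitive disorder (PND) mice received the same plus an open tibial fracture fixed with an intramedullary nail. Every mouse therefore carried the effect of anesthesia and analgesia, and the comparison addressed what the fracture added. Because the tissue was measured in bulk, fewer cells of a type and less RNA per cell cannot be told apart.

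The TCA cycle oxidizes the acetyl group of acetyl-CoA to carbon dioxide and passes the electrons to NADH and FADH2, which feed the respiratory chain. Neurons draw most of their ATP from this route, and 2-oxoglutarate, an intermediate of the cycle, links it to glutamate. Citrate synthase starts the cycle, the NAD-dependent isocitrate dehydrogenase and 2-oxoglutarate dehydrogenase are its regulated oxidative steps, and succinyl-CoA ligase, fumarase and malate dehydrogenase return the carbon to oxaloacetate.

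The 4 libraries held between 15763432 and 18573386 counts, and the members received from 1036 to 6421 counts in a library. Markers of hippocampal subfields, neurons, astrocytes, microglia and oligodendrocytes were all detected. The 5 choroid plexus markers summed to 127 CPM (counts scaled to library size, with TMM factors) in the first control mouse and to 5399 in the second, against 2031 and 3440 CPM in PND mice. The 8 neuronal markers summed to 11792 and 11502 CPM in control mice against 10888 and 10648 CPM in PND mice, with 2 called higher and 2 called lower. Called means an adjusted p under 0.05, and of all genes tested 13.1% were called higher and 12.8% lower, the shares beside each marker count here. The 7 astrocyte markers summed to 3645 and 3382 CPM in control mice against 4180 and 3946 CPM in PND mice, with 3 called higher and 1 called lower. Across 17120 genes the log2 fold change was lower at higher GC content of the transcripts (Spearman rho of -0.64 across genes, which are not independent replicates). The 6 subfield markers summed to 990 and 925 CPM against 998 and 909 CPM. Zbtb20 was called higher, at a log2 fold change of 0.44, and Wfs1 and Fibcd1 lower, at -0.70 and -0.64. Prox1, at 0.43, was not called. The 7 oligodendrocyte markers summed to 6224 and 5372 CPM in control mice against 6111 CPM in the first PND mouse and 3951 CPM in the second, which stood apart, and 1 of them, Olig2, was called lower. The 5 endothelial markers summed to 197 and 206 CPM against 218 and 289 CPM, with 2 called higher. The 7 microglia markers summed to 297 and 287 CPM against 287 and 301 CPM, with 1, P2ry12, called higher at 0.84. The 9 red blood cell and neutrophil genes summed to 17.4 and 19.4 CPM against 13.2 and 16.5 CPM, with 1, Ltf, called lower at -1.63. The 5 nuclear RNA genes summed to 6168 and 6047 CPM in control mice against 6329 and 7160 CPM in PND mice, with Malat1 and Kcnq1ot1 called higher, at 0.67 and 1.17, and Miat called lower, at -0.30. The part of cell composition and RNA quality in the results was not tested. For GC content, each member is given also from a fit that takes out each library's trend with transcript GC content and length, called the corrected value here. In that fit Malat1 stood at 0.13, Kcnq1ot1 at 0.53 and Miat at -0.11. Of the neuron, microglia, oligodendrocyte, endothelial, nuclear RNA, and red blood cell and neutrophil markers, 0 were called in it. The astrocyte marker Aqp4 and the subfield marker Zbtb20 were called higher in it, at 0.71 and 0.57, against 0.958% of all genes. Wfs1 and Fibcd1 were not called in it.

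Of the 9 members, 4 were lower in PND mice at an adjusted p under 0.05, against 12.8% of all genes tested. These were Idh3b, Idh3g, Ogdh and Mdh2, and their fold changes lay between 0.700 for Mdh2 and 0.762 for Idh3b. One gene, Sucla2, which encodes a subunit of succinyl-CoA ligase, was higher, with a fold change of 1.28, against 13.1% of all genes called higher. Cs, Idh3a, Suclg1 and Fh1 were not called. In the corrected fit 0 of 9 members were called by edgeR's quasi-likelihood test, where 1.46% of 17120 genes were called lower and 0.958% higher, and 6 members, all with negative values, had an unadjusted p under 0.05 in that fit, against 14.2% of all genes with a negative value and such a p. DESeq2 was not run with that correction, and without it DESeq2 called 4 members lower and 1 higher.

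**Figure D1:**
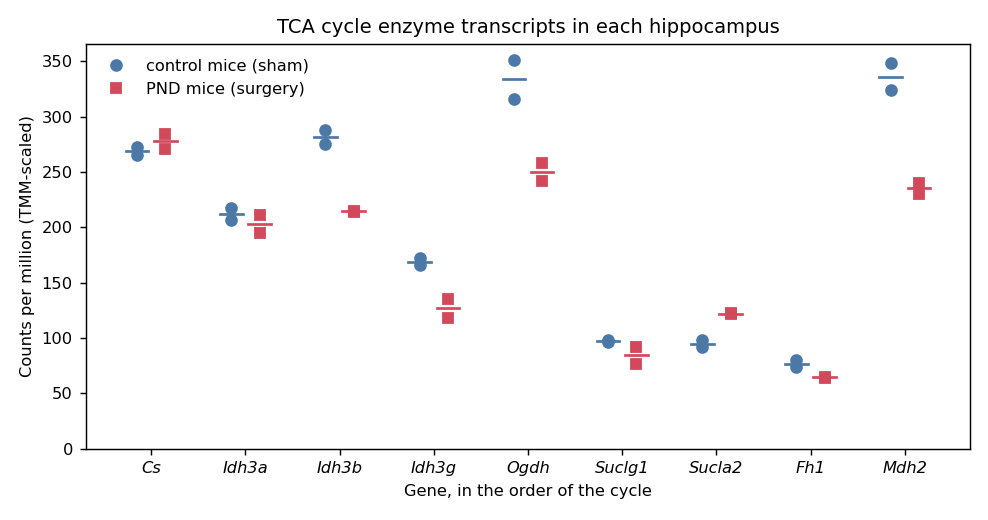
Expression of the 9 TCA cycle genes in CPM (TMM-scaled, vertical axis) in each of the 2 control and 2 PND mice (points), with the group mean as a bar. Both PND mice lay below both control mice for Idh3b, Idh3g, Ogdh, Suclg1, Fh1 and Mdh2 and above them for Sucla2, and the groups overlapped for Cs and Idh3a.

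Cs (ENSMUSG00000005683, chromosome 10, 128337734 to 128362479, plus strand, mm10) encodes citrate synthase, which joins acetyl-CoA to oxaloacetate. It measured 265.7 and 272.5 CPM in control mice against 270.7 and 284.7 CPM in PND mice, so that the groups overlapped. The group means were 269.1 ± 4.77 and 277.7 ± 9.91 CPM (SD, n = 2 each), a log2 fold change of 0.05 (SE 0.06, 95% interval from -0.10 to 0.19, adjusted p = 0.61). The interval leaves room for a change of either sign but not for one of the size seen in Mdh2. The corrected value was 0.03 (adjusted p = 0.81). Of the 75-nt windows of its transcripts, 0.403% were shared with its intronless paralog Csl, and the other 8 members shared no such window with another gene.

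Isocitrate dehydrogenase 3 is built from a catalytic subunit encoded by Idh3a and the subunits encoded by Idh3b and Idh3g, and it makes 2-oxoglutarate. Idh3a (ENSMUSG00000032279, chromosome 9, 54586334 to 54604661, plus strand) measured 206.5 and 217.4 CPM in control mice against 211.6 and 194.9 CPM in PND mice. The groups overlapped, and the log2 fold change was -0.06 (SE 0.07, 95% interval from -0.22 to 0.10, adjusted p = 0.55). Without the second PND mouse it was 0.0024.

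Idh3b (ENSMUSG00000027406, chromosome 2, 130279309 to 130284547, minus strand) measured 288.1 and 275.1 CPM in control mice against 215.0 and 213.8 CPM in PND mice. The 2 groups stood well apart, and the means of 281.6 ± 9.17 and 214.4 ± 0.830 CPM gave a log2 fold change of -0.39 (SE 0.06, 95% interval from -0.53 to -0.25, adjusted p = 0.0065). Its exons overlap those of Nop56 on the opposite strand, and whether counting used strand is not given in the sources used here, so reads of both genes could have been mixed. Nop56, which encodes a ribosomal RNA processing factor, had a log2 fold change of 0.18 (SE 0.08, adjusted p = 0.13).

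Idh3g (ENSMUSG00000002010, chromosome X, 73778963 to 73786897, minus strand) measured 166.1 and 172.2 CPM in control mice against 135.6 and 118.2 CPM in PND mice. Both PND mice were below both control mice, and the log2 fold change was -0.42 (SE 0.08, 95% interval from -0.61 to -0.22, adjusted p = 0.014). Thus the partner subunits Idh3b and Idh3g fell, while the catalytic subunit did not pass the test. In the corrected fit the 3 subunits lay close together, at -0.31 for Idh3a (95% interval from -0.50 to -0.12, adjusted p = 0.090), -0.32 for Idh3b (adjusted p = 0.059) and -0.35 for Idh3g (adjusted p = 0.078).

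The start regions of Idh3b, Idh3g and Sucla2 are printed as a choice made after their fold changes were seen. Idh3b and Idh3g fell together, and Sucla2 moved the other way before correction. Each holds 250 bases before and 50 bases from the RefSeq start (GRCm38.p6), read 5′ to 3′ on the strand of the gene. The capitals mark CCGGAAG, a motif of the GA-binding protein family, in Idh3b at chr2:130284402-130284701 (minus strand, read there as its reverse complement) and in Idh3g at chrX:73786848-73787147 (minus strand), and GCGCANGCG, a motif of NRF1, in Sucla2 at chr14:73552536-73552835 (plus strand, read as its reverse complement).
Idh3b: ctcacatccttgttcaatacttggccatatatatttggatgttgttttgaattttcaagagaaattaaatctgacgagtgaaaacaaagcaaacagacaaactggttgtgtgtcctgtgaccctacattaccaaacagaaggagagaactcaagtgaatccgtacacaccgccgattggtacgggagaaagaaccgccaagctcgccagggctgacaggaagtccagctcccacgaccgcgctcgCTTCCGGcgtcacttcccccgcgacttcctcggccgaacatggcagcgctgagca
Idh3g: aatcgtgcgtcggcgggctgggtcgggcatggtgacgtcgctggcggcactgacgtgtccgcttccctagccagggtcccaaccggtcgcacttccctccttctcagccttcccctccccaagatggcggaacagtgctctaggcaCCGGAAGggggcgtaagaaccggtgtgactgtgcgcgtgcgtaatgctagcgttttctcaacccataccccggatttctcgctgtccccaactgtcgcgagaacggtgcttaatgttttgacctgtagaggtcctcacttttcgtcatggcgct
Sucla2: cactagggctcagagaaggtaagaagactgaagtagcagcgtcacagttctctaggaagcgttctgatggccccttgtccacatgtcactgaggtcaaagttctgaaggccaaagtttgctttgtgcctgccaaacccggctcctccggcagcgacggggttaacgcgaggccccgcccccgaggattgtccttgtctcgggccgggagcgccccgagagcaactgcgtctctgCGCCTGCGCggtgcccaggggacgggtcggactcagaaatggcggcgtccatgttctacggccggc
Both factors are known as regulators of nuclear genes for mitochondrial proteins. Searched on both strands, CCGGAAG was in 8.86% and GCGCANGCG in 6.25% of the 32851 start regions of the mouse genes, and the motif TCAAGGTCA of estrogen-related receptors was in 0.423%. Of the 13 start regions matched for 8 members (Idh3a is named only), 2 held CCGGAAG, 3 held GCGCANGCG, in Sucla2 and in a pair of overlapping Ogdh windows that share the same site, and 0 held TCAAGGTCA. The RefSeq start of Sucla2 lies inside the gene span of the deposited table. Ogdh and Mdh2, which were also called lower, held no CCGGAAG in their start regions. A match is a description of the letters in these windows, and a link to the fold changes was not tested.

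Ogdh (ENSMUSG00000020456, chromosome 11, 6291633 to 6356642, plus strand) encodes the E1 component of the 2-oxoglutarate dehydrogenase complex, which makes succinyl-CoA. It measured 316.0 and 351.3 CPM in control mice against 258.0 and 241.9 CPM in PND mice. The control mice differed from each other more than the PND mice did, yet the groups did not overlap, and the log2 fold change was -0.42 (SE 0.07, 95% interval from -0.59 to -0.24, adjusted p = 0.010). The corrected value was -0.35 (adjusted p = 0.066).

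Succinyl-CoA ligase pairs the alpha subunit encoded by Suclg1 with a beta subunit that sets the nucleotide used, Sucla2 for ATP or Suclg2 for GTP. Sucla2 (ENSMUSG00000022110, chromosome 14, 73525319 to 73596142, plus strand) measured 97.99 and 91.91 CPM in control mice against 122.2 and 121.5 CPM in PND mice. It was the 1 member that rose, with a log2 fold change of 0.36 (SE 0.07, 95% interval from 0.20 to 0.52, adjusted p = 0.011). The call rested on the second control mouse, without which the log2 fold change was 0.31 (adjusted p = 0.058). In the corrected fit it was 0.03 with an interval from -0.14 to 0.20 (adjusted p = 0.86).

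Suclg1 (ENSMUSG00000052738, chromosome 6, 73248382 to 73276911, plus strand) measured 96.71 and 98.20 CPM in control mice against 91.86 and 76.67 CPM in PND mice. The PND mice were both lower but differed from each other by more than the first of them differed from the control mice, and the log2 fold change was -0.21 (SE 0.10, 95% interval from -0.44 to 0.02, adjusted p = 0.16). Without the first PND mouse it was -0.36 (adjusted p = 0.026), and without the second it was -0.080. The corrected value was -0.23 (adjusted p = 0.24).

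Fh1 (ENSMUSG00000026526, chromosome 1, 175600374 to 175625635, minus strand) encodes fumarase, which hydrates fumarate to malate. It measured 73.49 and 79.99 CPM in control mice against 64.96 and 64.11 CPM in PND mice. The groups did not overlap, and the log2 fold change of -0.25 just missed the threshold (SE 0.07, 95% interval from -0.43 to -0.07, adjusted p = 0.052). It had the lowest corrected value of the 9, at -0.41 with an interval from -0.60 to -0.22 (adjusted p = 0.054).

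Mdh2 (ENSMUSG00000019179, chromosome 5, 135778480 to 135790398, plus strand) encodes mitochondrial malate dehydrogenase, which closes the cycle at oxaloacetate. It measured 323.9 and 348.2 CPM in control mice against 240.0 and 230.4 CPM in PND mice. Both PND mice were far below both control mice, and the means of 336.1 ± 17.1 and 235.2 ± 6.75 CPM gave the lowest log2 fold change of the 9, -0.51 (SE 0.06, 95% interval from -0.67 to -0.36, adjusted p = 0.0049). The corrected value was -0.33 (adjusted p = 0.057).

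**Figure D2:**
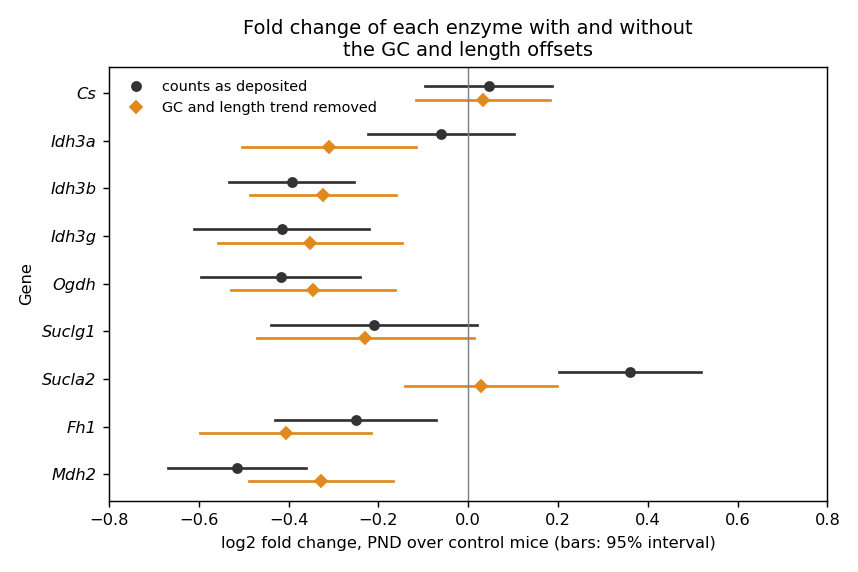
The log2 fold change (horizontal axis, PND over control mice) of each TCA cycle gene with its 95% interval, from the counts as deposited and from the fit corrected for transcript GC content and length. Mdh2 lies lowest at -0.51 and Sucla2 highest at 0.36, and Sucla2 moves to 0.03 after correction.

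The median log2 fold change of the 9 members was -0.25, and that of all 17144 genes was 0.01. After correction the median was -0.32 over the members and -0.03 over all genes, and 7 of 9 members were below 0 in either fit. Both PND mice lay below both control mice for 6 members, against 32.2% of all genes, and above them for 1 member, against 33.2% of all genes. When a fold change of at most 0.67 or at least 1.5, as used by the study, was asked for beside the adjusted p under 0.05, 0 members were called in edgeR's test, and 2.25% and 6.75% of all genes were. The fold change of 0.700 of Mdh2 came nearest. The 9 genes together took 1835 and 1907 CPM in control mice against 1610 and 1546 CPM in PND mice.

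The fold changes of the members were set beside GC content. Over the 9 genes, which share the same 4 libraries, Spearman's rho between GC content and log2 fold change was -0.87, and after correction it was -0.37. Sucla2, with the lowest GC content of the members at 44.3%, lay in a bin of 2140 genes whose median log2 fold change was 0.30. Mdh2, with the highest at 55.4%, lay in a bin with a median of -0.26. Idh3a and Fh1, at 45.9% and 47.7%, shared a bin with a median of 0.18 and both lay below it, and Cs, Idh3b, Idh3g and Ogdh, between 50.4% and 52.3%, shared one with a median of -0.08. Cs, at 0.05, lay above that median, and Idh3b, Idh3g and Ogdh, at -0.39, -0.42 and -0.42, lay below it at a similar GC content. Suclg1, at 50.2%, lay in a bin with a median of 0.03 and was itself at -0.21.

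**Figure D3:**
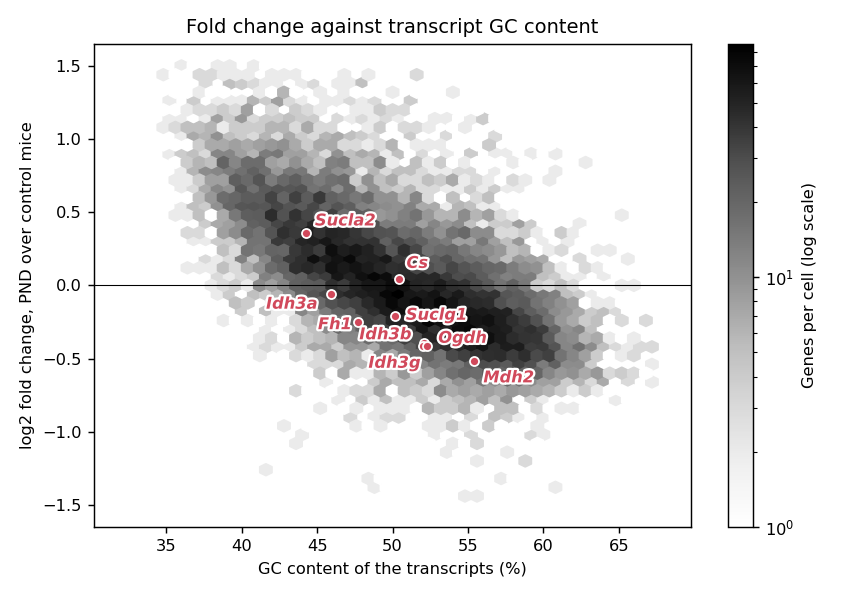
The log2 fold change (PND over control mice) of 16887 tested genes against the GC content of their transcripts in percent, shaded by the number of genes per cell on a log scale, with the 9 TCA cycle genes as labelled points (233 genes lie outside the axes). The cloud slopes down with GC content, and the members run from Sucla2 at 44.3% and 0.36 to Mdh2 at 55.4% and -0.51.

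Ratios between 2 genes of the same library do not depend on how the libraries were scaled. With 2 mice against 2, an exact two-sided permutation test cannot go below p = 0.33, which becomes 0.556 after Benjamini-Hochberg adjustment over the 10 pairs compared, so none could pass a threshold of 0.05. The Idh3a to Idh3b count ratio was 0.717 and 0.790 in control mice against 0.984 and 0.912 in PND mice, a log2 difference of 0.33 without overlap. Against Idh3g, Idh3a stood at 1.24 and 1.26 in control mice against 1.56 and 1.65 in PND mice, a difference of 0.36. Idh3b to Idh3g overlapped between the groups, at 1.73 and 1.60 against 1.59 and 1.81, a log2 difference of 0.03. After correction the Idh3a differences were 0.01 and 0.04.

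For succinyl-CoA ligase, the ratio of Sucla2 to Suclg1 was 1.01 and 0.936 in control mice against 1.33 and 1.59 in PND mice, a log2 difference of 0.58 that was 0.26 after correction. Suclg2 to Suclg1 was 0.141 and 0.159 against 0.196 and 0.273, a difference of 0.63 that was 0.36 after correction. That difference was 0.39 without the second PND mouse and 0.87 without the first. The ratio of the beta subunits overlapped, with Sucla2 to Suclg2 at 7.21 and 5.89 against 6.79 and 5.81. Within the 2-oxoglutarate dehydrogenase complex, Ogdh to Dlst, the E2 component, overlapped at 2.05 and 2.16 against 2.06 and 1.85. Ogdh to Dld, the E3 component shared with pyruvate dehydrogenase, stood at 3.30 and 4.02 against 2.25 and 2.14, a log2 difference of -0.73 that was -0.11 after correction. Fh1 to Sdha overlapped, at 0.154 and 0.166 against 0.171 and 0.160. Mdh2 to its cytosolic counterpart Mdh1 stood at 0.577 and 0.555 against 0.527 and 0.555, a difference of -0.07 with the nearest mice of the groups almost equal, and of 0.38 after correction.

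**Figure D4:**
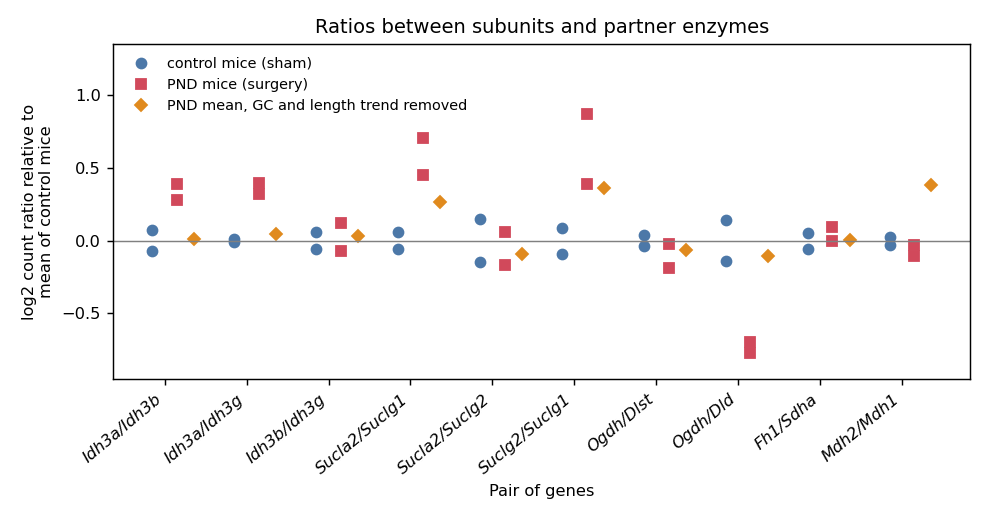
Log2 ratio of the counts of 2 genes in each mouse, shown with the control average of each pair set to 0 (vertical axis), for the 10 pairs of subunits and partner enzymes, with diamonds for the mean of the PND mice after correction for GC content and length. The widest shifts are Ogdh to Dld at -0.73 and Suclg2 to Suclg1 at 0.63, and 4 pairs overlap between the groups.

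Compared per kilobase of transcript, Mdh2 was the most abundant member and Fh1 the least in both groups. In the control mice the mean CPM per kilobase was 230.8 for Mdh2, 174.2 for Idh3b, 127.1 for Idh3g, 92.0 for Cs, 85.1 for Idh3a, 81.2 for Ogdh, 64.2 for Suclg1, 50.3 for Sucla2 and 29.1 for Fh1. Of the neighbours in this order, Idh3a and Ogdh overlapped between mice. In the PND mice the order was Mdh2 at 161.5, Idh3b at 132.7, Idh3g at 95.3, Cs at 94.9, Idh3a at 81.6, Sucla2 at 64.6, Ogdh at 60.8, Suclg1 at 55.5 and Fh1 at 24.5, with overlap between Idh3g and Cs and between Ogdh and Suclg1. Sucla2 thus stood above Ogdh and Suclg1 in the PND mice and below them in the control mice on this uncorrected scale. With the corrected fold changes applied to the control levels it stayed below both, at 51.3 CPM per kilobase against 63.9 for Ogdh and 54.7 for Suclg1.

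Of 7 other genes of the cycle, 3 were lower and 1 was higher, against 12.8% and 13.1% of all genes, and their median log2 fold change was -0.17. The E2 component gene Dlst fell by 0.31 and the succinate dehydrogenase subunits Sdha by 0.29 and Sdhd by 0.49 on the log2 scale (adjusted p = 0.017, 0.014 and 0.0057). Sdhb and Sdhc, at -0.17 and -0.15, and Suclg2, at 0.42, were not called, and 11.6% of the windows of Suclg2 are shared with another gene. Dld rose by 0.31 (adjusted p = 0.023) and its corrected value was -0.24. In the corrected fit 2 of the 7 were lower, against 1.46% of all genes, namely Sdha at -0.41 and Sdhd at -0.55.

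Among 7 genes that bring pyruvate into the cycle, 3 were lower and 1 was higher, against 12.8% and 13.1% of all genes. Pcx, the pyruvate carboxylase gene that replenishes oxaloacetate, fell by 0.53, Pdha1 of pyruvate dehydrogenase by 0.41 and the pyruvate carrier subunit Mpc2 by 0.33 on the log2 scale (adjusted p = 0.0078, 0.018 and 0.023). Its partner Mpc1 rose by 0.70 (adjusted p = 0.014), and it was measured at 8.74 CPM in the control mice. Of the windows of Mpc1, 21.3% are shared with other genes, and of those of Pdha1, 10.6%. Pdhb, Dlat and Pdhx, at -0.06, 0.09 and 0.05, were not called. After correction Pdha1 alone of the 7 was called, at -0.69, where 1.46% of all genes were called lower. Pcx then stood at -0.29, Mpc2 at -0.23 and Mpc1 at 0.39.

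The 7 kinases, phosphatases and regulators of pyruvate dehydrogenase had 1 member lower, against 12.8% of all genes. This was Pdk2 at -0.44 (adjusted p = 0.0079), and Pdk1 stood at 0.18 (adjusted p = 0.12). After correction Pdk2 stood at -0.21 (adjusted p = 0.14). Of 16 cytosolic and NADP-dependent isoenzymes and shuttle genes, 8 were lower and 0 higher, against 12.8% and 13.1% of all genes. The lowest adjusted p-values were those of the aspartate aminotransferase gene Got2 at -0.37 and the citrate carrier gene Slc25a1 at -0.47 (both adjusted p = 0.0088). After correction Got2 stood at -0.22 (adjusted p = 0.12) and Slc25a1 at -0.19 (adjusted p = 0.25). The 3 of the 16 then called lower, against 1.46% of all genes, were Mdh1 at -0.71, Me3 at -0.52 and Slc25a12 at -0.49. Me3 and Slc25a12 were named after their values were seen. Of the windows of Got2, 19.3% are shared with other genes. Without correction Mdh1 was at -0.45 (adjusted p = 0.010). Of 2 genes of glutamate entry, the glutaminase gene Gls2 was lower at -0.42 (adjusted p = 0.037) and the glutamate dehydrogenase gene Glud1 stood at 0.07 (adjusted p = 0.61), and after correction Gls2 stood at -0.20 (adjusted p = 0.37). Among 6 tested paralogs and assembly factors, 1 was lower, against 12.8% of all genes. This was the brain-expressed paralog Ogdhl at -0.54 (adjusted p = 0.0049), and Dhtkd1 stood at 0.35 (adjusted p = 0.087). The corrected value of Ogdhl was -0.36 (adjusted p = 0.056).

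Side by side with these, 14 of 19 listed nuclear genes of respiratory complexes I, III, IV and V were lower and 0 higher. Of all genes, 12.8% were called lower and 13.1% higher. Genes of these complexes outside the list were not counted. They include Atp5f1, at 0.24 (adjusted p = 0.049), and Ndufa9, at -0.38 (adjusted p = 0.011). The median log2 fold change of the 19 was -0.41. After correction their median was -0.31 and 4 of the 19 were called lower, against 1.46% of all genes. The lowest adjusted p-values were those of Cox5a, at -0.82 (adjusted p = 0.0043), and Atp5d, at -0.69 (adjusted p = 0.0048). After correction Cox5a stood at -0.93 (adjusted p = 0.023) and Atp5d at -0.38 (adjusted p = 0.058). Of 12 genes of the mitochondrial genome, 11 were higher and 0 lower, against 13.1% and 12.8% of all genes, with a median of 1.09. After correction the median was 0.21, 1 of the 12 was called higher, against 0.958% of all genes, and 4 lay below 0. The lowest p-values of this list were those of mt-Nd6, at 2.06, and mt-Nd1, at 1.03. The adjusted p of mt-Nd1 was tied with those of mt-Nd2 and mt-Co2 (adjusted p = 0.0043). After correction mt-Nd6 stood at 0.89 (adjusted p = 0.023) and mt-Nd1 at 0.22 (adjusted p = 0.18). Few counts fell on mt-Nd3 and mt-Nd4l, from 16 to 79 and from 15 to 31 in a library. Shared windows were not counted for this list. The median GC content of these 12 genes was 37.4%. They lay in the bin of 2140 genes with the lowest GC content, up to 42.9%, of which 49.4% were called higher.

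**Figure D5:**
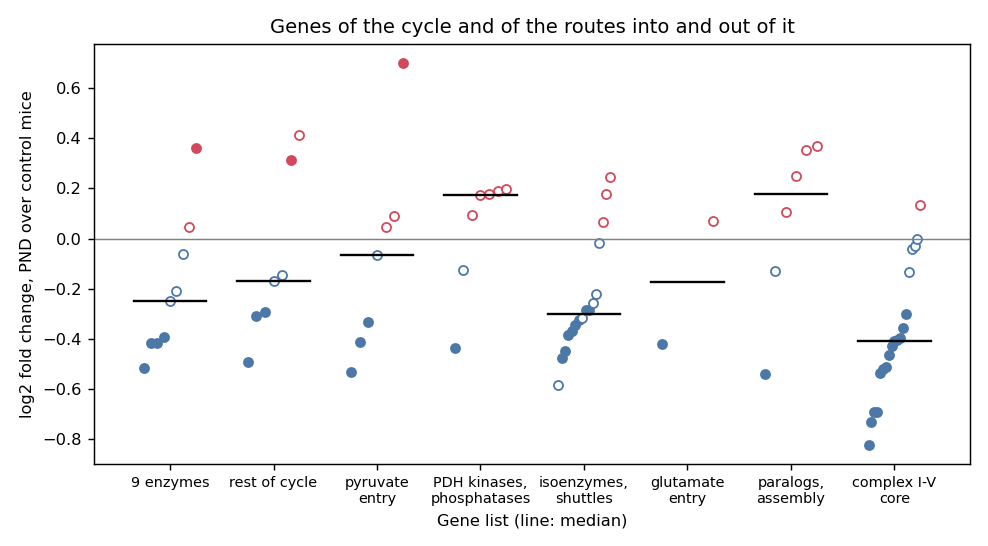
The log2 fold change (vertical axis, PND over control mice) of the 9 TCA cycle genes and of 7 related gene lists, with one point per gene, filled where the adjusted p was under 0.05, red above and blue below 0, and a line at the median of each list. The TCA cycle genes lie between -0.51 and 0.36 around a median of -0.25. The list labelled complex I-V core holds no complex II gene, and its median lies at -0.41.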

How the data were processed

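Hippocampal RNA from 2 control (sham) and 2 surgery mice was sequenced by the authors as 150-nt paired-end reads from oligo(dT)-selected RNA and aligned to mm10. The submitters' processing notes list HISAT2 2.1.0, Bowtie2 2.2.3, TopHat2 and HTSeq 0.6.0 without roles. The deposited table holds counts per gene, and the use of strand is not given in the sources used here. The authors' mean signals, fold changes, p-values, direction and significance marks were not used. Groups and replicates were taken from the labels.

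The counts were tested with edgeR 4.0.16 (quasi-likelihood F test, TMM, filterByExpr at a minimum count of 10) in R 4.3.3, with Benjamini-Hochberg adjustment over all 17144 genes tested and a threshold of 0.05. TMM factors were between 0.982 and 1.02. With 2 mice per group the spread was shared across genes. Intervals are 95% intervals of that fit. The corrected fit used offsets from smooths of log counts on GC content and length (mgcv 1.9.3), for 17120 genes with GENCODE M21 models. Fits with offsets also ran edgeR's estimateDisp first, which the main fit did not, and the part of this step in the lost calls was not tested. The models matched 29238 of 29300 genes. Start regions came from RefSeq (GRCm38.p6). The alternatives included DESeq2 1.42.0. The code was tested on simulated data. Replicates differed by more than sampling noise (chi-square per degree of freedom 13.4 and 8.45).

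All 9 members were named with each value. Every gene used of the rest of the cycle and of pyruvate entry was named, and in each other list the 2 lowest adjusted p-values. Other planned items of these lists and ratios are not reported here. Mdh1 and Nop56 were named as partner genes. The members and lists were chosen with earlier results of these data known. Alternatives were library totals alone, DESeq2, no filter, each mouse left out, the replicate block, and corrections for GC content and length.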

Additional observations from a re-analysis of the deposited data

How the results depend on the processing

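With only 2 mice per group, each call rests on a spread shared across genes. Of 108 values of single members under the alternatives, 89 kept their side of the threshold, 12 lost and 5 gained the call, and 2 reversed, namely Idh3a without the second surgery replicate (0.0024, and -0.14 to 0.0024 over all mice left out in turn) and Cs with length offsets only (-0.032). The members' median log2 fold change was -0.20 with library totals only, -0.32 with GC and length offsets, -0.33 with GC offsets only, -0.32 with length offsets only, and from -0.36 to -0.20 when 1 mouse was left out. Offsets for GC content or for length alone were chosen after seeing the data. Over all genes, 2250 were higher and 2199 lower as reported, 2651 and 1812 with library totals only, 1703 and 2084 with DESeq2, 1639 and 2741 with length offsets only, 1315 and 1350 without the filter on low counts, 164 and 250 with GC and length offsets, 170 and 272 with GC offsets only, and, with 1 mouse left out, from 1201 to 2025 higher and from 1207 to 2080 lower. Members called higher numbered 0 and lower 0 with GC and length offsets, with GC offsets only and with the fold changes of the study, and from 0 to 1 higher and from 4 to 5 lower with 1 mouse left out. Of the other pathway genes, 0 were higher and 6 lower with GC and length offsets, and from 0 to 2 higher and from 9 to 15 lower with 1 mouse left out. With GC and length offsets the log2 ratio differences were 0.011 for Idh3a/Idh3b, 0.044 for Idh3a/Idh3g, 0.26 for Sucla2/Suclg1, 0.36 for Suclg2/Suclg1, -0.11 for Ogdh/Dld and 0.38 for Mdh2/Mdh1. The cause of these differences was not tested.

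Same-numbered mice share only a number, and their deviations from the group means correlated at 0.224. The replicate block left the members' median at -0.25, called 5 members lower, Fh1 included, and 1 higher, and called 2655 genes higher and 2626 lower. The replicate block with GC and length offsets gave a median of -0.32, called 6 members lower and 0 higher, and called 928 genes higher and 1748 lower.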
